A study of Mus musculus with 6 samples.

Results

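B4galnt3 and 9 other genes were read in the whole colon of male mice of 12 weeks, 3 wild type and 3 labelled Tnfrsf1a-/- (WT and R1ko in the figures). These 9 are paralogs of B4galnt3 or serve to begin or build mucin-type glycans. Tnfrsf1a encodes tumour necrosis factor receptor 1 (TNFR1), and all 6 animals carry the strain label C57Bl/6J. The members were found by symbol in the deposited table of transcript abundances (TPM, a level per transcript length, scaled to the same total in each library), with each transcript taken once. All 10 genes were present with 14 transcripts, out of 30419 genes and 86818 transcripts with a value and a gene. B4galnt3 was chosen by the TPM of one of its transcripts, which was lower in these same knockout libraries, and the others because they are its paralogs or act on the same class of glycan. The values of B4galnt3 are therefore given as a description without a test. The sources used here do not give which part of Tnfrsf1a was removed or in what genetic background the allele was made. RNA came from all layers of the colon wall, so fewer cells of a type and less RNA per cell cannot be told apart.

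Mucin-type glycans are sugar chains attached to serine and threonine of mucins and many membrane proteins, and in the colon they make up most of the mass of the secreted mucins. A family of GALNT enzymes, Galnt12 among them, attaches the first N-acetylgalactosamine. C1galt1 then adds galactose to make core 1, for which it needs the chaperone Cosmc, the product of C1galt1c1. B3gnt6 adds N-acetylglucosamine instead to make core 3, and Gcnt1 and Gcnt3 add the branches of core 2 and core 4. The B4galnt enzymes work near the ends of chains or on lipids. B4galnt3 and B4galnt4 add N-acetylgalactosamine to terminal N-acetylglucosamine, which gives the LacdiNAc unit. B4galnt2 makes the Sda antigen on intestinal glycans, and B4galnt1 makes gangliosides on lipids.

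B4galnt3 (ENSMUSG00000041372; mm10 chromosome 6, 120203073 to 120294559, minus strand) had 2 transcripts with values, and they start at different places. ENSMUST00000057283, of 3677 bases, is annotated as protein coding. ENSMUST00000125341, of 3610 bases, is annotated as a processed transcript with no coding sequence. Each has 20 exons in the GENCODE M21 annotation of mm10, and 18 of these have identical coordinates in both. The coding form begins with an exon of 169 bases at chr6:120294391-120294559, and the processed form with an exon of 81 bases at chr6:120242563-120242643, which lies 51748 bases further downstream in the first intron of the coding form. The last exon differs only at its end, where the processed form runs 21 bases further. The first exons are shown 5′ to 3′ on the minus strand of GRCm38 (mm10) because they hold most of the sequence that separates the forms. Capitals mark the annotated start codon in the coding form and each ATG triplet in the first exon of the processed form.
ENSMUST00000057283 first exon: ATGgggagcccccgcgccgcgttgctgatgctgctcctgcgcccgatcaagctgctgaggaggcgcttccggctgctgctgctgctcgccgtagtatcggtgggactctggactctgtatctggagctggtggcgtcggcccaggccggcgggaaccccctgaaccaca
ENSMUST00000125341 first exon: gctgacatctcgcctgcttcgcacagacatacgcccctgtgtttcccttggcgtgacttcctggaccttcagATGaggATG
Shared start of exon 2: ggtatggcagctggcgagaactggccaagg

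The first exon of the coding form was 68.0% G and C, and that of the processed form 56.8%. From its start codon the coding form reads 986 codons before a stop. Within the first exon of the processed form, ATG triplets lie at positions 73 and 79, counted from 1 at its 5′ end. They read 14 and 12 codons before a stop, in a frame other than that of the protein. ATG triplets in later exons of the processed form were not examined. The shared 30 bases of exon 2 (chr6:120232962-120232991) show where both forms become the same.

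**Figure D1:**
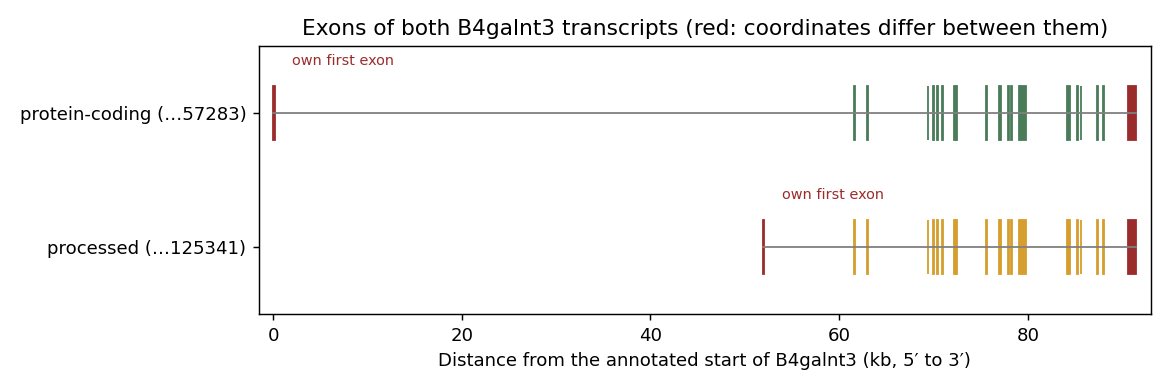
Exons of both B4galnt3 transcripts, drawn to scale as distance in kb from the annotated start of the gene, with red for exons whose coordinates differ. The 18 exons between the first and the last are the same in both, and the last differs by 21 bases.

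In the wild-type colon both B4galnt3 forms were present at similar levels, and in the knockout colon nearly all B4galnt3 was assigned to the coding form. The coding form measured 25.8, 20.0 and 24.7 TPM across wild-type replicates 1, 2 and 3, and 51.7, 40.4 and 51.3 TPM in knockout replicates 1, 2 and 3. Its means were 23.5 ± 3.07 and 47.8 ± 6.41 TPM (SD, n = 3), a ratio of 2.03, and every knockout value lay above every wild-type value. The processed form measured 22.1, 22.7 and 33.0 TPM in wild-type mice and 1.67, 1.54 and 0.394 TPM in knockout mice. Its means were 25.9 ± 6.10 and 1.20 ± 0.702 TPM, 21.6-fold higher in wild type, and the groups were far apart. Groups did not overlap for 8.19% of all transcripts tested. On the log2(TPM + 0.5) scale, which understates changes of low values, the knockout minus wild-type differences were 1.01 ± 0.19 (SE) for the coding form and −4.04 ± 0.35 for the processed form.

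The sum of both B4galnt3 forms was 47.9, 42.8 and 57.6 TPM in wild-type mice and 53.4, 41.9 and 51.6 TPM in knockout mice. Knockout replicates 1 and 3 lay inside the wild-type range, above wild-type replicates 1 and 2. Knockout replicate 2 lay just below that range. The mean sums were 49.4 ± 7.56 and 49.0 ± 6.18 TPM (SD, n = 3), and the log2 difference was −0.01 ± 0.21 (SE), a value that turned positive when wild-type replicate 3 or knockout replicate 2 was left out.

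As a share of the B4galnt3 sum, the processed form held 46.1, 53.2 and 57.2% in wild type and 3.13, 3.67 and 0.762% in knockout. A share is taken within 1 library, so a factor common to that library cancels. The mean share was 52.2 ± 5.62% in wild type and 2.52 ± 1.55% in knockout (SD, n = 3), a difference of −49.6 percentage points. With any 1 library left out, the difference lay between −52.7 and −47.1 points. B4galnt3 was chosen by the processed form in these same libraries, so this range is a description and no test.

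**Figure D2:**
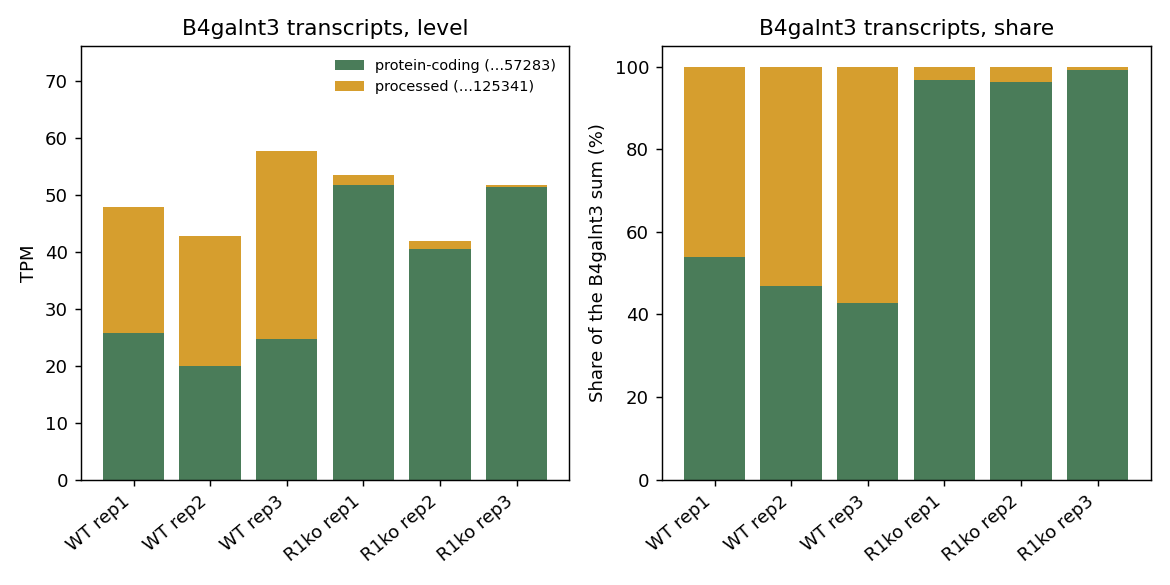
Level in TPM (left) and share of the gene in percent (right) of the B4galnt3 transcripts in each of the 6 libraries, stacked so that the bar height on the left is the gene sum. The processed form makes up 46.1 to 57.2% of each wild-type bar and 0.762 to 3.67% of each knockout bar, while the bar heights overlap between the groups.

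Little sequence separates the B4galnt3 forms. Reads were paired and 50 bases long, per the series' design text, and a pair can join such sequence with shared exons. Of 3561 stretches of 50 bases in the processed form only 102 (2.86%) do not occur in the coding form. Of these 102, 81 touch the first exon and 21 lie at the 3′ end. Of 3628 stretches in the coding form, 169 (4.66%) do not occur in the processed form, and all 169 touch the first exon. At the 3′ end only the processed form has stretches of its own.

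A further gene, D330020A13Rik, is annotated on the plus strand across the start of B4galnt3 (120294364 to 120295432). Of the 169 stretches that mark the coding form, 121 occur in D330020A13Rik on the opposite strand. The sources used here do not give whether strand was used in the quantification, and without it reads that lie within the shared stretches cannot be told apart. D330020A13Rik measured 11.3 ± 1.65 TPM in wild-type mice and 11.7 ± 2.37 TPM in knockout mice (SD, n = 3; log2 difference 0.04 ± 0.23 SE), with overlapping groups. The RefSeq start of B4galnt3 lies at 120294897, 338 bases upstream of the first base of the coding form in GENCODE M21. That upstream stretch is in neither GENCODE transcript of the gene used here.

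B4galnt3 lies 5.05 Mb from Tnfrsf1a on chromosome 6. Any sequence that came along with the targeted allele and the loss of the receptor itself cannot be told apart in this design. Its neighbours were taken as the 3 tested genes on each side of B4galnt3 in order of start position. Of these 6, 2 were higher and 4 lower in the knockout mean. In limma 0 passed the adjusted p of 0.05 and 2 had an unadjusted p below 0.05, against 0.266% and 3.7% of all genes tested. Wnk1, a kinase that regulates ion transport, measured 50.0 ± 11.0 TPM in wild-type mice and 44.3 ± 7.24 TPM in knockout mice. Ninj2, 2.73 kb from the end of B4galnt3, measured 1.91 ± 0.652 and 3.09 ± 0.705 TPM (log2 difference 0.59 ± 0.29 SE, unadjusted p = 0.0469, Benjamini-Hochberg adjusted p = 1 in limma). Ccdc77 measured 7.16 ± 1.40 and 6.17 ± 1.15 TPM, and Kdm5a, a histone demethylase, 15.0 ± 4.17 and 13.8 ± 2.62 TPM. The pseudogene Gm16199 measured 12.1 ± 2.21 and 7.18 ± 4.87 TPM (log2 difference −0.90 ± 0.31 SE, unadjusted p = 0.00681, limma adjusted p = 0.54). Groups overlapped for all 6 of these neighbours, D330020A13Rik included.

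The labels were checked on the targeted gene. The Tnfrsf1a transcript ENSMUST00000032491 lay at 39.9 to 67.6 TPM in wild-type mice and 20.4 to 25.6 TPM in knockout mice. ENSMUST00000125880 lay at 0.890 to 1.20 TPM and 12.4 to 18.0 TPM, so both separated the libraries as labelled. ENSMUST00000144524 did so too, at 0.112 to 0.243 and 1.40 to 2.09 TPM. For ENSMUST00000134803 the groups overlapped, at 1.93 to 2.92 and 2.32 to 5.25 TPM. The Tnfrsf1a gene sum had a log2 difference of only −0.41 ± 0.22 (SE, unadjusted p = 0.0719 in limma). Wild-type replicate 2 stood apart: transcripts without a gene held 27.4% of its TPM, against 1.86 to 7.23% in the other 5 libraries, and TPM sum to the same total in every library. Among the 10 members, 8 had their lowest wild-type value in that library. Median-of-ratios scaling, which divides each library by its typical ratio to the others, gave it a factor of 0.786 against 0.918 to 1.13 for the rest. TPM do not keep the depth of a library, so the depth behind each value is unknown.

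The other members were compared as gene sums with limma, which fitted log2(TPM + 0.5) over the 14284 genes whose mean TPM was 1 or more. Of the 8 members other than B4galnt3 that reached this mean, 0 passed a Benjamini-Hochberg adjusted p of 0.05 and 0 had an unadjusted p below 0.05. Over all genes 0.266% passed (0.091% higher and 0.175% lower in the knockouts), and 3.7% had an unadjusted p below 0.05. With median-of-ratios scaling 5 genes were called higher and 1 lower, against 13 and 25 with TPM as deposited. Groups overlapped for all 8, while 4.98% of all genes tested had groups that did not overlap. Their log2 differences were positive for 5 and negative for 3, with a median of 0.16 against 0.03 over all genes tested; after median-of-ratios scaling the medians were 0.13 and −0.003. All 8 had an adjusted p of 1 with TPM as deposited and of 0.485 to 0.892 after scaling.

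Among the paralogs of B4galnt3, B4galnt2 (chromosome 11, 95865943 to 95914891), the Sda enzyme, was the most abundant. It measured 45.5, 39.1 and 37.0 TPM across wild-type replicates 1 to 3 and 56.5, 48.4 and 40.6 TPM in the knockout replicates. Its highest values were in knockout replicates 1 and 2, and knockout replicate 3 lay inside the wild-type range. The means were 40.5 ± 4.41 and 48.5 ± 7.93 TPM (SD, n = 3), with a log2 difference of 0.25 ± 0.21 (SE, limma adjusted p = 1). With libraries left out in turn it lay between 0.13, without knockout replicate 1, and 0.37, without knockout replicate 3.

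B4galnt1 and B4galnt4 were much less abundant than B4galnt2 and B4galnt3. B4galnt1 (chromosome 10, 127165225 to 127172330), the ganglioside enzyme, measured 5.97, 2.80 and 6.10 TPM in wild-type mice and 4.63, 3.65 and 5.49 TPM in knockout mice. Wild-type replicate 2 was the lowest of the 6, and the knockout libraries lay between it and the other wild-type libraries. Its log2 difference was −0.05 ± 0.28 (SE, limma adjusted p = 1), which became 0.0007 with quantile normalization. B4galnt4 (chromosome 7, 141061104 to 141072400), the second LacdiNAc enzyme, measured 2.06, 0.925 and 1.37 TPM in wild-type mice and 1.44, 0.834 and 1.21 TPM in knockout mice. The groups overlapped. Its log2 difference was −0.21 ± 0.31 (SE, limma adjusted p = 1).

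The core 1 enzyme and its chaperone were present at similar levels. C1galt1 (chromosome 6, 7844842 to 7875687) measured 39.4, 29.6 and 41.1 TPM in wild-type mice and 45.9, 40.8 and 39.6 TPM in knockout mice. It is on the chromosome of Tnfrsf1a but 117 Mb away from it. C1galt1c1 (chromosome X, 38630785 to 38635087) measured 45.3, 33.1 and 45.4 TPM in wild-type mice and 44.2, 48.4 and 44.1 TPM in knockout mice. For both genes wild-type replicate 2 was the lowest library, and the other wild-type libraries lay close to the knockout values. Log2 differences were 0.21 ± 0.21 for C1galt1 and 0.16 ± 0.21 for C1galt1c1 (SE; limma adjusted p = 1 for both). Without wild-type replicate 2 they were 0.06 and 0.006.

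Of the branching enzymes, Gcnt1 (chromosome 19, 17326141 to 17372844) measured 23.8, 26.5 and 27.1 TPM in wild-type mice and 24.7, 26.5 and 22.5 TPM in knockout mice. Here wild-type replicate 2 was not the lowest wild-type library, and the groups overlapped. Gcnt3 (chromosome 9, 70031496 to 70038088), which makes core 2 and core 4 branches in mucin-secreting tissue, measured 13.5, 11.7 and 15.5 TPM in wild-type mice. Its knockout values were 15.5, 15.4 and 15.3 TPM, all above wild-type replicates 1 and 2 and just below replicate 3. Log2 differences were −0.07 ± 0.21 for Gcnt1 and 0.18 ± 0.22 for Gcnt3 (SE; limma adjusted p = 1 for both). The difference of Gcnt3 was 0.09 without wild-type replicate 2 and 0.28 without wild-type replicate 3. That of Gcnt1 ran from −0.13 without wild-type replicate 1 to −0.01 without knockout replicate 3.

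The initiating enzyme Galnt12 (chromosome 4, 47091909 to 47123070) measured 28.3, 22.8 and 30.5 TPM in wild-type mice and 27.3, 31.4 and 32.4 TPM in knockout mice. Knockout replicate 1 lay between the wild-type libraries, and the log2 difference was 0.16 ± 0.21 (SE, limma adjusted p = 1). It was 0.04 without wild-type replicate 2 and 0.25 without wild-type replicate 3. B3gnt6 (chromosome 7, 98192417 to 98199481), the core 3 enzyme, was the least abundant member. It measured 0.391, 0.203 and 0.434 TPM in wild-type mice and 0.449, 0.213 and 0.417 TPM in knockout mice, which is under the level that was tested. In each genotype replicate 2 was its lowest library, and the groups overlapped.

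**Figure D3:**
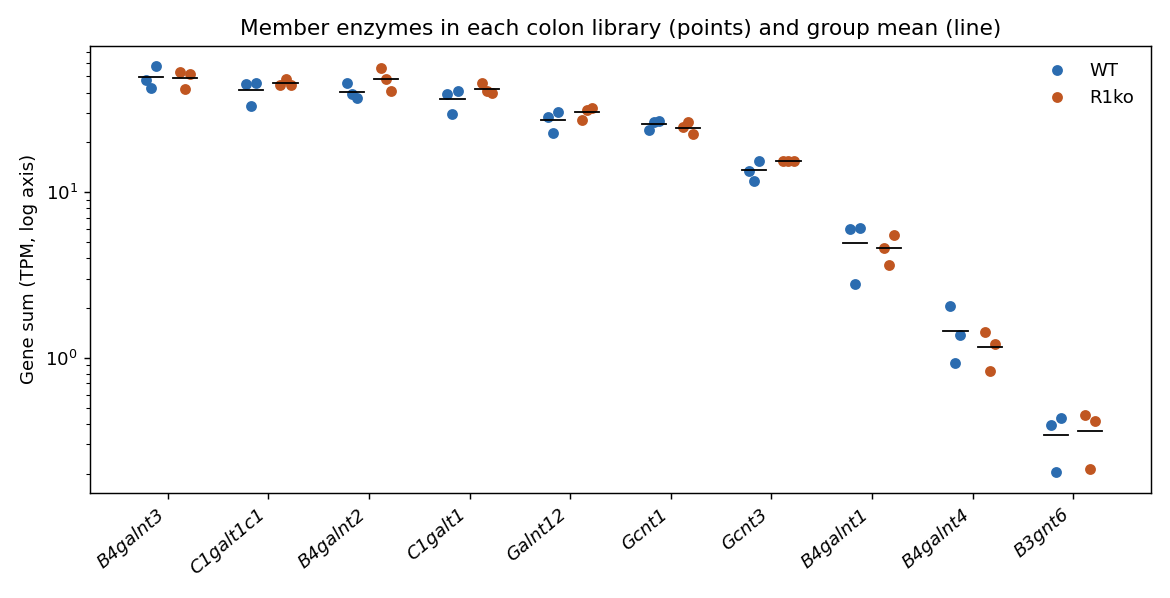
Gene sums of the 10 members in TPM on a log axis, with 1 point per library, a line at each group mean and genes ordered by the wild-type mean. Groups overlap for all 10 genes, from B4galnt3 at 41.9 to 57.6 TPM down to B3gnt6 at 0.203 to 0.449 TPM.

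By wild-type mean the members ranked B4galnt3, C1galt1c1, B4galnt2, C1galt1, Galnt12, Gcnt1, Gcnt3, B4galnt1, B4galnt4 and B3gnt6. From B4galnt3 down to Gcnt1 the wild-type ranges of each gene and the next overlapped. The steps from Gcnt1 to Gcnt3, from there to B4galnt1, then to B4galnt4 and to B3gnt6 had ranges that did not overlap, and they held in all 6 libraries. Summed over the 10 members, the libraries lay at 209.4 to 262.2 TPM in wild-type mice and 253.3 to 274.1 TPM in knockout mice.

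Single transcripts of the other members gave no shift like that of B4galnt3. Only Gcnt1 and Galnt12 had more than 1 transcript with values, and in each of them 1 form dominated. Gcnt1 ENSMUST00000174236 held 94.2, 96.6 and 93.2% of the gene in wild type and 95.5, 96.6 and 95.7% in knockout. The retained-intron form ENSMUST00000174137 held 4.40 ± 1.27% and 3.88 ± 0.584% (SD, n = 3). Another form, ENSMUST00000169897, measured 0.238, 0.119 and 0.373 TPM in wild-type mice and 0, 0 and 0.111 TPM in knockout mice, too low for testing. Galnt12 ENSMUST00000045041 held 98.4 ± 1.14% of the gene in wild type and 98.7 ± 0.226% in knockout.

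The same limma fit was run on 31056 transcripts and on 26633 shares, the latter as the log2 ratio of a transcript to the rest of its gene. Outside B4galnt3, 0 of 9 member transcripts and 0 of 3 member shares passed an adjusted p of 0.05, and 0 in either set had an unadjusted p below 0.05. Only the Gcnt1 and Galnt12 transcripts add to the gene sums here. Each other member had 1 transcript, whose values are those of its gene. Over all features tested 0.0419% of transcripts passed (0.029% higher and 0.0129% lower in the knockouts), and 0.0413% of shares (0.0263% higher and 0.015% lower). An unadjusted p below 0.05 was reached by 5.02% of transcripts and 10.8% of shares. Quantile normalization called 12 transcripts higher and 2 lower, against 9 and 4. The smallest limma adjusted p among these member transcripts was 1 and among the shares 0.684. Their groups all overlapped, whereas groups did not overlap for 8.19% of all transcripts and 17.6% of all shares.

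The rest of the pathway was read from lists that were chosen with earlier results of these data known. No gene of these lists passed the adjusted p of 0.05 in limma. After median-of-ratios scaling the list medians ran from 0.05 to 0.24, and the signs counted here were the same but for Galnt1 and St3gal2, which became negative. Of 13 other initiating GALNT genes tested, 9 had positive and 4 negative log2 differences, with a median of 0.10 and 0 at an unadjusted p below 0.05. The most abundant were Galnt7, at 55.7 ± 9.51 TPM in wild-type mice and 61.0 ± 3.42 TPM in knockout mice, and Galnt6, at 53.4 ± 14.5 and 59.7 ± 4.79 TPM. Both were more abundant than Galnt12. Of 10 other enzymes of branching and chain extension, 8 were positive and 2 negative, with a median of 0.19 and 1 at an unadjusted p below 0.05. That gene was B3gnt7, an enzyme that extends sulfated chains, with 209.5 ± 63.8 and 307 ± 19.6 TPM (log2 difference 0.60 ± 0.22 SE, limma adjusted p = 0.656, 0.334 after scaling). Wild-type replicate 2 had 135.9 TPM of B3gnt7, and the other wild-type libraries 248.1 and 244.6 TPM. B3gnt3, the core 1 extension enzyme, had 116 ± 11.6 and 133 ± 3.33 TPM.

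Sialic acid, fucose and sulfate cap the chains. Of 12 sialyltransferase symbols, of which St6galnac2 stands under 2 gene numbers, 10 entries were tested, with 6 positive, 4 negative, a median of 0.08 and 0 at an unadjusted p below 0.05. St6galnac6 had 512 ± 91.0 TPM in wild-type mice and 556 ± 17.8 TPM in knockout mice, and St3gal6 148 ± 23.7 and 171 ± 8.59 TPM. Of 3 fucosyltransferases tested, 2 were positive and 1 negative, with 0 at an unadjusted p below 0.05. Fut4 had 38.8 ± 5.09 and 46.7 ± 2.69 TPM, and Fut2, which makes the H antigen of secretions, 34.0 ± 8.81 and 40.4 ± 3.77 TPM.

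Of 5 sulfotransferases tested, 3 were positive and 2 negative, with a median of 0.10 and 1 at an unadjusted p below 0.05. Gal3st1 had 20.5 ± 2.31 and 22.0 ± 1.60 TPM and Gal3st2 18.2 ± 2.80 and 19.9 ± 0.721 TPM. The gene under 0.05 was Chst4, with 12.9 ± 4.36 and 18.0 ± 0.285 TPM (unadjusted p = 0.0373, limma adjusted p = 1), named after its values were seen. Of 9 genes that supply activated sugars, 8 were positive and 1 negative, with a median of 0.17 and 0 at an unadjusted p below 0.05. Gne, which begins sialic acid synthesis, had 353 ± 81.2 and 389 ± 11.2 TPM, and Cmas, which activates sialic acid, 204 ± 38.9 and 226 ± 52.7 TPM. Of 6 mucins tested, 4 were positive and 2 negative, with a median of 0.13 and 0 at an unadjusted p below 0.05. Muc13 had 1259.9 ± 234.2 and 1613 ± 218.8 TPM, and Muc3 1382 ± 301.0 and 1237 ± 231.7 TPM.

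**Figure D4:**
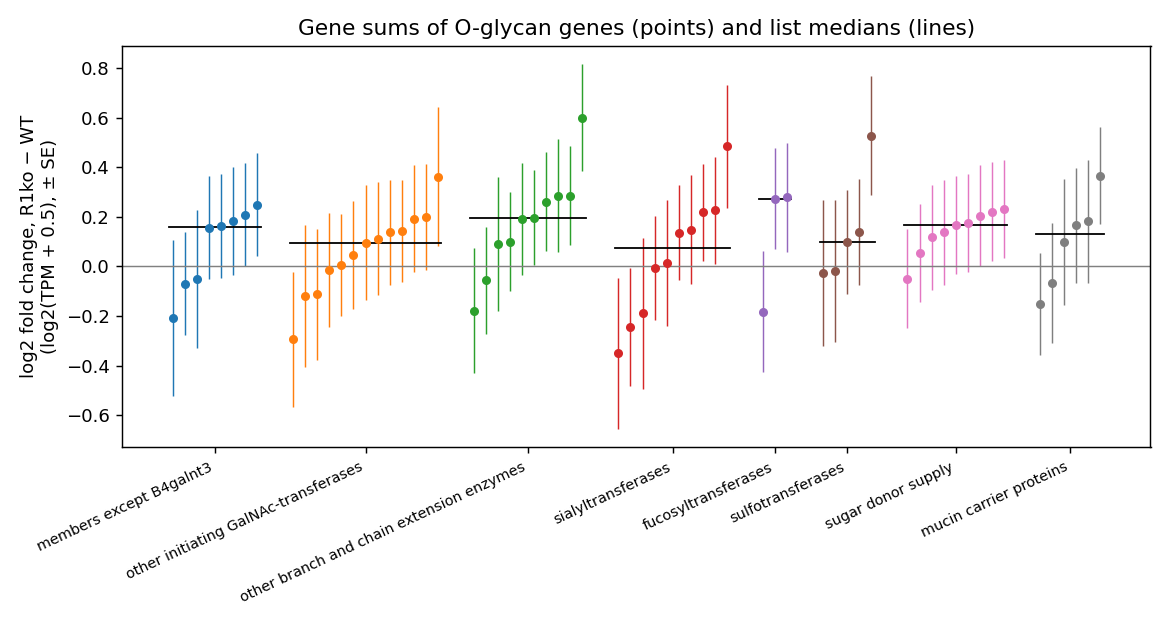
Log2 difference of gene sums, knockout minus wild type, for the tested genes of each list (points, ± SE from limma) with the list median as a line. The 8 members shown, without B4galnt3, lie between −0.21 and 0.25, and no gene shown passed the adjusted p of 0.05.

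Markers of the tissue were read beside these values. No list had a marker that was 0 in every library. All 10 markers of colon epithelium were at 6.08 TPM or more in every library, and their sum was 6409 to 9168 TPM in wild-type mice and 8412 to 9005 TPM in knockout mice, with a median log2 difference of 0.21. All 10 differences were positive, 1 had an unadjusted p below 0.05 in limma, and for 3 the groups did not overlap. The 8 goblet cell markers, the cells that secrete mucin, summed to 6422 to 8773 TPM in wild-type mice and 9457 to 9999 TPM in knockout mice. For 6 of the 8 the groups did not overlap, the median log2 difference of the 8 was 0.36, and 0 passed the adjusted p of 0.05 in limma, with 3 at an unadjusted p below 0.05. Over all genes tested 4.98% had groups that did not overlap and 3.7% an unadjusted p below 0.05. The goblet cell mucin Muc2 was counted among the mucins and not in this list, and is named after its values were seen. It went the other way, with 642 ± 215 TPM in wild-type mice and 622 ± 219 TPM in knockout mice. Its log2 difference was −0.07 ± 0.24 (SE), and its groups overlapped. The 6 absorptive colonocyte markers summed to 2928 to 3507 TPM in wild-type mice and 3587 to 3827 TPM in knockout mice. Their median log2 difference was 0.24, and all 6 differences were positive, like those of the 8 goblet cell markers. Among these colonocyte markers 1 had an unadjusted p below 0.05, and for 1 the groups did not overlap. The 6 adipocyte markers summed to 52.2 to 147.9 and 178.9 to 247.0 TPM, with a median log2 difference of 1.05 and Cfd past the threshold (limma adjusted p = 0.00769, 0.287 after scaling). All 6 had an unadjusted p below 0.05, and for 5 the groups did not overlap. Skeletal muscle and squamous epithelium markers summed to 120.3 to 1764 and 182.5 to 820.0 TPM in wild-type mice and to 688.5 to 1695 and 509.6 to 751.5 TPM in knockout mice, with medians of 1.31 and 0.53. An unadjusted p below 0.05 was reached by 6 of 6 skeletal muscle markers and 1 of 6 squamous markers, and groups did not overlap for 1 and 0 of them. The 6 B cell markers summed to 20.3 to 29.8 TPM in wild-type mice and 6.15 to 25.8 TPM in knockout mice, with a median of −0.87. Of these, 5 had an unadjusted p below 0.05, and for 1 the groups did not overlap. The 6 smooth muscle markers had a median of −0.07, and 0 had an unadjusted p below 0.05. The part of these markers in the values of the members was not tested.

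The genes whose level ran most like B4galnt3 over the 6 libraries were found by Pearson's r of log2(TPM + 0.5), as a description. For the B4galnt3 sum these were Gpbp1l1 (r = 0.997), Nek4 (r = 0.991), Spg11 (r = 0.990), Ms4a4a (r = 0.990) and Garnl3 (r = 0.989). All 5, like the sum itself, had their highest value in wild-type replicate 3. For the processed form, which separates the genotypes, they were Scnn1b (r = 0.986), Gm4707 (r = 0.969), Gm17907 (r = 0.957), Gm21836 (r = 0.939) and Crisp1 (r = 0.938). Scnn1b, the beta subunit of the epithelial sodium channel, measured 10.3, 10.03 and 11.0 TPM in wild-type mice and 7.95, 7.72 and 6.45 TPM in knockout mice. These genes were found by their likeness to a transcript that separates the genotypes, and all values share the libraries and their scaling.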

How the data were processed

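The authors deposited 1 table of TPM per transcript for 3 wild-type and 3 knockout colons. Per the labels' protocols, the SMARTer Universal Low Input kit was used on polyA RNA. Quantification used kallisto 0.43.1 with mm10, per the submitters' processing notes. TPM carries no read depth, so no counting error can be given. Of 132639 lines, 1433 repeated a transcript and were dropped; 43008 transcripts had no value, and 1380 had no gene. TPM were summed per gene.

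Differences of genes, transcripts and shares were fitted in R 4.3.3 with limma 3.58.1 (variance trend, pseudocount 0.5, mean of at least 1 TPM) with Benjamini-Hochberg adjustment over all features, and the model was tested on simulated data. The members and lists were chosen with earlier results of these data known. Named were all members, their transcripts, 3 tested genes on each side of B4galnt3, the 5 genes most like it, and of each list those past the threshold or else the 2 with the highest mean. Coordinates and sequences are from GENCODE M21 (GRCm38), and the RefSeq start is that of GRCm38.p6. The annotation may differ from the transcripts the authors used. Alternatives were pseudocounts of 0.1 and 1, filters, scaling, variance settings, a replicate block, an adjusted p of 0.1 and each library left out.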

Additional observations from a re-analysis of the deposited data

How the results depend on the processing

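No member gene, transcript or share outside B4galnt3 passed under any alternative run; the counts stayed at 0, with limma adjusted p from 0.485 to 1 for genes, 0.477 to 1 for transcripts and 0.584 to 0.999 for shares. Among these fits, 0 genes, 1 transcript and 1 share had an unadjusted p below 0.05. Over all features, calls moved from 38 genes to between 1 (no filter on low values) and 307 (without wild-type replicate 1; 19 without wild-type replicate 2, and 123 to 209 without any of the others), from 13 transcripts to between 1 (replicate block, and without wild-type replicate 2) and 57 (without knockout replicate 1), and from 11 shares to between 0 (no filter, replicate block, and without wild-type replicate 1 or knockout replicate 2) and 16 (adjusted p below 0.1). Each library left out moved the share count, to between 0 and 6, and transcripts to between 1 and 57. Median-of-ratios scaling called 6 genes and 14 transcripts. In the share fits 1418 to 5533 had an unadjusted p below 0.05. With the replicate number as a block, 71 genes, 1 transcript and 0 shares passed, and 0 members outside B4galnt3. Same-numbered libraries deviated together with r of 0.05, 0.13 and 0.18 across genes. Every wild-type library, and knockout replicates 2 and 3, correlated best with their own number. Knockout replicate 1 correlated better with wild-type replicate 3 (r = 0.10) than with wild-type replicate 1. These correlations were small, and the numbers were not taken as pairs in the main fit.

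Log2 differences near 0 changed sign in some fits. With quantile normalization B4galnt1 was at 0.00073 as a gene and 0.0046 as a transcript. With libraries left out in turn, B4galnt1 ran from −0.38 to 0.12 for gene and transcript, the B4galnt3 sum from −0.11 to 0.11, B4galnt4 from −0.41 to 0.0078 for gene and transcript, and Gcnt1 ENSMUST00000174236 from −0.11 to 0.013. Without its processed form the B4galnt3 sum is the coding form alone, so its log2 difference of 1.01 is that of the coding form again. With libraries left out, the log2 differences of the B4galnt3 forms ran from 0.90 to 1.12 for the coding and −4.27 to −3.63 for the processed form. B4galnt3 was chosen for this contrast in the same libraries, so these ranges are a description and no test of its direction. Shares over protein-coding transcripts alone gave no value, since only 1 such B4galnt3 transcript had TPM. The causes were not tested.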
